A study of Drosophila melanogaster with 11 samples.

Results

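Embryos of Drosophila melanogaster labelled smg were compared with w1118 embryos of the same age, 2 to 3 h, on 2-colour cDNA microarrays. The comparison used the 4 arrays whose titles name smg material and the 4 arrays whose titles name w1118 embryos, 8 of the 11 arrays in the series. The smg group carries a mutation in the smg gene whose allele the labels do not give, and replicate 4 is described as SMGoverDf where the other 3 are described as SMG. The w1118 group, used as wild type, is a white-eyed laboratory strain carrying an allele of the white gene. Both groups were hybridised against RNA of w1118 stage 14 oocytes, with 60 µg of RNA per channel, Alexa Fluor 647 marking the embryo channel and Alexa Fluor 555 the oocyte channel. No array had the dyes swapped. The labels do not say how many embryos were pooled or whether replicates came from separate collections, so the p-values measure the spread between these arrays, which may be technical, and the number of arrays limits the precision.

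The oocyte loads the egg with maternal mRNA, and the first nuclear divisions run on it without transcription of the embryo's own genome. During the maternal-to-zygotic transition many maternal mRNAs are destroyed and zygotic transcription begins. smg encodes Smaug, an RNA-binding protein that binds hairpins in maternal mRNAs, represses their translation and recruits the CCR4-NOT deadenylase complex, which shortens poly(A) tails and so starts mRNA decay. Embryos of this age normally reach the syncytial blastoderm and cellularize, and express the gap, dorsal-ventral and neurogenic genes that pattern the body.

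Each value below is a log2 ratio of the embryo sample to the oocyte RNA, averaged over the spots of a gene and set relative to the median gene of its array. A level of 0 is therefore the level of that array's median gene, not the oocyte level itself. A gene was tested when at least 3 arrays of each group had a value, which left 5791 of 6793 genes. The test was limma's moderated test blocked on the 2 slide sets (an earlier set with replicates 1 and 2 of both genotypes, a later set with replicates 3 and 4). A gene is called when its p-value adjusted by the Benjamini-Hochberg method over all genes tested is at most 0.05. Differences are smg minus w1118 on the log2 scale, followed by their standard error (SE).

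The arrays were uneven. Replicate 1 of each genotype had a value for 51.1% (smg) and 48.9% (w1118) of spots and a deposited median of -4.43 (smg) and -4.01 (w1118), against 81.8% to 99.1% of spots and medians between -0.15 and 0.14 on the other 6 arrays. Across genes, smg replicate 3 correlated with smg replicate 4 at r = 0.76 but with smg replicate 1 at r = -0.51, with smg replicate 2 at r = -0.34 and with w1118 replicate 1 at r = -0.49. smg replicate 4 also correlated below 0, though more weakly, with smg replicate 1 (r = -0.17), smg replicate 2 (r = -0.12) and w1118 replicate 1 (r = -0.18). The highest correlation joined both genotypes, smg replicate 1 with w1118 replicate 1 (r = 0.79), the pair with low deposited medians. The 4 w1118 arrays correlated with each other at r = 0.46 to 0.73. The labels give the same dye orientation for all 8 arrays but no statement of which channel is the numerator, and arrays of one orientation that run against each other leave the direction of smg replicate 3 unsettled. Some genes on it had the sign of the other arrays, such as the yolk protein genes Yp1 (-3.01) and Yp3 (-1.75), the maternal gene exu (-1.56), and the zygotic genes Inx3 (1.27) and Kr (1.47). Other maternal genes did not, such as osk (2.11) and spz (3.28). The 17 transcripts listed as degraded maternal mRNAs had a median of 1.46 on smg replicate 3 and 0.42 on smg replicate 4. It was -1.06 and -0.98 on smg replicates 1 and 2, and -1.54 to -0.56 on the w1118 arrays. Results are therefore also given with smg replicate 3 turned in sign and without it.

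The smg transcript itself was represented by 4 spots. Its level was -2.66, -1.18, 2.02 and 0.21 on smg replicates 1 to 4, against -2.60, -0.77, -1.44 and -1.12 on w1118 replicates 1 to 4. The groups overlapped, with smg replicate 3 alone far above the w1118 arrays. The difference of 1.07 (SE 0.61) was not called (limma, adjusted p = 0.44). It was 0.065 with smg replicate 3 turned in sign and -0.24 on the earlier slides, while on the later slides it was 2.39 and called (adjusted p = 0.0364). Where the spots lie relative to the mutation is unknown here, so they do not check the genotype.

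At 2 to 3 h, 214 genes were higher in smg and 21 were lower. The called rises make up 3.7% of all genes tested and the called falls 0.363%. Rises were between 1.23 and 4.62 (median 1.96) and falls between -1.54 and -3.81 (median -2.34), while the median over all genes tested was 0.16 with 63.9% of genes positive. All 214 genes that rose had a w1118 mean below the array median, and 192 of them had an smg mean above it. All 21 genes that fell had a w1118 mean above the array median, and 19 kept an smg mean above it. In these whole-embryo samples, fewer cells of a type and less RNA per cell cannot be told apart.

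**Figure D1:**
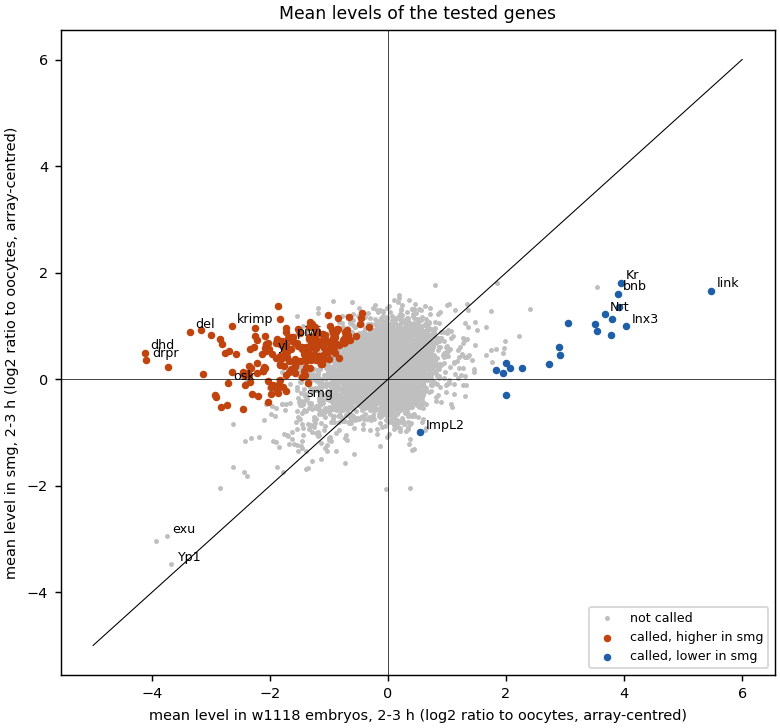
Mean level of each tested gene in smg embryos (vertical axis) against w1118 embryos (horizontal axis), as log2 ratio to oocytes relative to the array median; orange points are the 214 genes called higher in smg, blue points the 21 called lower, and the diagonal marks equal means. The orange genes lie at w1118 means below 0 and mostly at smg means just above it. Yp1 and exu lie near the diagonal, low in both genotypes.

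The 4 smg arrays did not agree in size. The 214 genes that rose had a median level of -0.71, -0.29, 2.13 and 0.97 on smg replicates 1 to 4, against -1.90, -1.67, -1.40 and -1.05 on w1118 replicates 1 to 4. Every smg median thus lay above every w1118 median, with smg replicate 3 the highest and smg replicate 1 the lowest of the 4. For 155 of these 214 genes the smg and w1118 arrays did not overlap at all, where over all genes tested 5.66% had every smg array above every w1118 array. The 21 genes that fell, of which smg replicate 1 measured 11 and w1118 replicate 1 measured 12, had a median of 0.97, 0.50, 0.45 and 1.14 on the smg arrays, against 3.23, 3.24, 2.98 and 2.93 on the w1118 arrays, a narrow range within each genotype. For 20 of them the groups did not overlap, against 4.04% of all genes tested with every smg array below every w1118 array. Both sets of genes were called from these same arrays, so their lack of overlap is not separate support.

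With smg replicate 3 turned in sign, limma called 0 genes in either direction, with 104 higher and 93 lower at an unadjusted p under 0.05. The differences of all 214 genes that rose stayed positive (median 0.90), and those of all 21 genes that fell stayed negative (median -2.55). These genes were chosen by a fit to the same arrays, so the kept signs are not independent of the choice. Without smg replicate 3, 155 genes were called higher and 22 lower among the 3661 genes that could be tested. The 155 were all among the 214, and 11 of the 22 were among the 21, which are all of those 21 that could be tested.

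Which set of slides gave the larger rises depended on the sign taken for smg replicate 3, an array of the later set. Among the 209 called-higher genes with a value on all 8 arrays the median difference was 2.73 on the later slides and 1.24 on the earlier slides, and it was larger on the later slides for each of the 209. When smg replicate 3 was turned in sign the median on the later slides was 0.64, below that on the earlier slides, and 18 of the 209 were larger on the later slides. Turning an array that is high for these genes lowers the later difference by construction. On smg replicate 4, also of the later set, the 214 genes had a median level of 0.97, against -1.40 and -1.05 on w1118 replicates 3 and 4. The test of the difference between the sets by limma called 0 of 3393 genes, with 501 at an unadjusted p under 0.05, 78 of them among the 209. With smg replicate 3 turned it also called 0, with 5 at an unadjusted p under 0.05. Among the 9 falls with a value on every array the medians were -2.05 on the later slides (-2.86 with smg replicate 3 turned) and -2.33 on the earlier slides. The later slides alone called 520 genes higher and 24 lower, 207 and 17 of them among the 214 and the 21. The earlier slides alone called 0 genes, with 138 higher and 34 lower at an unadjusted p under 0.05, and all 210 called-higher genes measured there were positive. The fit that chose those genes includes the earlier slides, so this shared sign is not independent support.

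**Figure D2:**
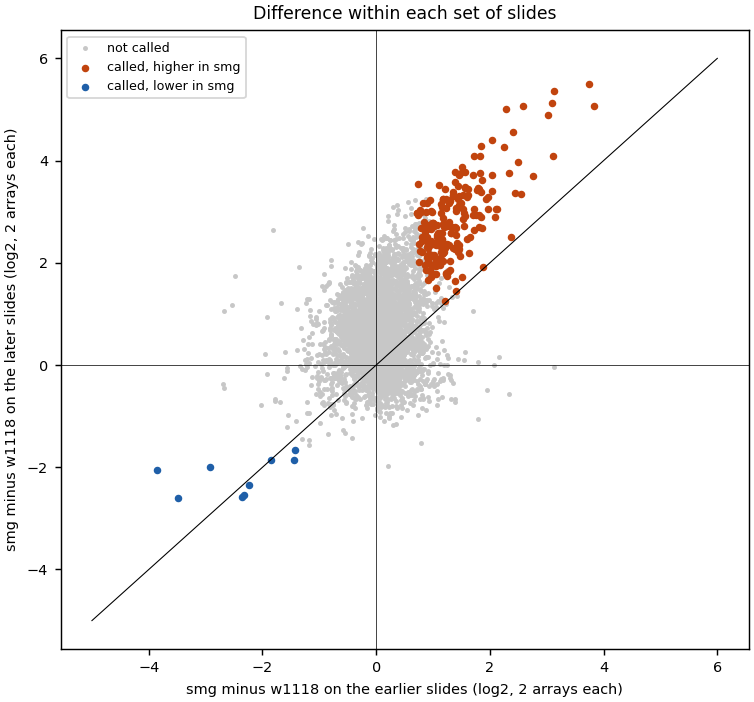
Difference smg minus w1118 on the later slides (vertical axis) against the earlier slides (horizontal axis), in log2 units with 2 arrays of each genotype in each set; each point is one of the 3393 genes with a value on all 8 arrays, and the diagonal marks equal differences. With the values as deposited in sign for all arrays, the called-higher genes lie above the diagonal and the called-lower genes on both sides of it.

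Genes of meiosis and of histone storage were among the largest rises. dhd, a thioredoxin of the female germline that remodels sperm chromatin after fertilization, was at -0.87, -0.56, 2.45 and 0.98 on the smg arrays, against -4.12, -4.79, -3.39 and -4.17 on the w1118 arrays. The lowest smg array was above the highest w1118 array by a wide margin, and the difference was 4.62 (SE 0.45, limma adjusted p = 1.46e-04). Gcna, a germ cell nuclear protein that acts on DNA-protein crosslinks, was at -0.61, -0.06, 3.17 and 1.23 in smg, against -3.80, -3.05, -2.77 and -3.10 in w1118. Its groups were also apart, with a difference of 4.11 (SE 0.50, adjusted p = 5.13e-04). Jabba, which anchors maternal histones to lipid droplets, was at -1.19, -0.79, 2.01 and 0.90 in smg, against -4.24, -3.79, -3.08 and -3.80 in w1118 (difference 3.96, SE 0.44, adjusted p = 3.28e-04). In all 3 genes smg replicates 1 and 2 stayed below the array median and smg replicates 3 and 4 lay above it. With smg replicate 3 turned in sign their differences were 3.39 (dhd), 2.53 (Gcna) and 2.95 (Jabba).

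Genes of the piRNA pathway, which silences transposons in the germline through small RNAs bound to Piwi-family proteins, were among the rises. del, a partner of Rhino at the genomic clusters that give rise to piRNAs, was at -0.40, -0.49, 3.23 and 1.23 in smg, against -3.61, -3.55, -2.98 and -3.29 in w1118. The difference was 4.25 (SE 0.50, adjusted p = 4.46e-04). krimp, a Tudor-domain protein of the perinuclear nuage, rose by 3.64 (SE 0.59), and Boot, which acts in export of piRNA precursors from the nucleus, rose by 3.05 (SE 0.44). piwi, the nuclear Argonaute of the pathway, was at 0.12, 0.22, 1.37 and 1.24 in smg, against -1.55, -1.80, -1.67 and -1.53 in w1118. All 4 piwi values in smg were above the array median and all 4 in w1118 were below it, with a difference of 2.37 (SE 0.34, adjusted p = 0.00187), although the differences given by its spots spread over 2.55. Panx (2.00) and qin (1.59), named after their values were seen, were also called, both with overlapping groups. Of 24 piRNA genes tested 6 rose, 0 fell and 23 had a positive difference, with a median of 0.59. Among those not called, aub was at 0.82 (adjusted p = 0.257) and mael at 0.44 (adjusted p = 0.835). Mov10, an RNA helicase of the family that includes the piRNA factor Armitage, rose by 3.82 (SE 0.54).

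Germ plasm is the posterior cytoplasm that specifies the germ cells. All 10 germ plasm and pole cell genes tested had a positive difference, 4 of them called (osk, krimp, piwi and CycB), with a median of 1.26. osk, the organiser of germ plasm, was at -1.59, -1.05, 2.11 and 0.20 in smg, against -3.09, -3.48, -2.55 and -1.72 in w1118. The highest w1118 array lay just below the lowest smg array, and the difference was 2.63 (SE 0.46, adjusted p = 0.00595). CycB, the mitotic cyclin B, rose by 1.51 (SE 0.39, adjusted p = 0.0442) with overlapping groups. exu, which acts in localising bicoid mRNA, was at -3.79, -3.08, -1.56 and -3.36 in smg, against -3.78, -4.57, -3.61 and -3.05 in w1118. It was low in both genotypes and was not called (0.80, adjusted p = 0.391).

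Among 17 transcripts listed as maternal mRNAs degraded in the early embryo, 3 rose (spz, osk and CycB), 0 fell and 14 were positive, with a median of 0.98. spz, the precursor of the ligand that activates the Toll receptor, was at -1.43, 0.20, 3.28 and 1.75 in smg, against -2.97, -2.32, -2.35 and -1.41 in w1118. Only smg replicate 1 reached into the w1118 range, and the difference was 3.21 (SE 0.55, adjusted p = 0.00532). swa, which also acts in localising bicoid mRNA, was at 1.26 and not called (adjusted p = 0.144). Hsp83, the transcript best known as a target of Smaug, was not analysed here. Of 30 genes of mRNA decay and translational repression, 0 were called and 25 were positive (median 0.44). Their leading members were orb, a CPEB-family translational regulator (1.74, adjusted p = 0.0542), and the DEAD-box helicase bel (1.59, adjusted p = 0.0598). This list had a median of -0.07 with smg replicate 3 turned in sign.

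Of 22 genes of meiosis and egg activation, 4 rose, 0 fell and 19 were positive, with a median of 0.98. Beside dhd and Gcna these were nod, a kinesin-like protein that pushes chromosomes to the spindle equator in meiosis (1.80, SE 0.37), and yem, a partner of Hira in loading histone H3.3 onto the paternal chromatin (1.52, SE 0.37). Chromatin and histone storage genes gave 5 rises and 0 falls among 20 tested, with a median of 0.64. dre4, a subunit of the histone chaperone complex FACT, rose by 2.62 (SE 0.47), and BigH1, the embryonic linker histone that is later replaced by somatic histone H1, rose by 1.84 (SE 0.49) with overlapping groups. Ssrp, also a FACT subunit, had a difference of -1.12 and was not called (adjusted p = 0.22). His2Av, the stored H2A variant, was at 0.78 (adjusted p = 0.571). With smg replicate 3 turned in sign the chromatin list had a median of -0.03, and the meiosis list one of 0.50.

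The engulfment receptor gene drpr was also among the largest rises. Its level was -0.88, -0.66, 2.10 and 0.86 in smg, against -4.41, -4.80, -3.19 and -3.98 in w1118, with a difference of 4.45 (SE 0.40, adjusted p = 1.02e-04, the smallest of all genes). It was 3.40 with smg replicate 3 turned in sign. In ovaries drpr acts in follicle cells during the clearance of nurse cells. The scavenger receptor genes pes (2.95, SE 0.36) and crq (2.66, SE 0.49), both of the CD36 family, rose as well, and their groups did not overlap. These were the 3 called genes of 16 tested for engulfment, lysosomes and scavenger receptors (13 positive, median 0.34). The CD36-family genes emp (-0.31) and santa-maria (0.20) of this list were not called. This list's median was below 0 when the sign of smg replicate 3 was turned (-0.06) and when arrays were centred on genes measured on all 8 arrays (-0.04).

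Yolk and eggshell genes were listed as a mark of follicle cells or retained oocytes. Of 5 tested 2 rose, 0 fell and 4 were positive, with a median of 0.57 that became -0.36 after quantile normalization. yl, the receptor that takes up yolk proteins, was at -0.16, -0.03, 1.26 and 0.83 in smg, against -2.58, -2.38, -1.41 and -1.51 in w1118 (difference 2.44, SE 0.32, adjusted p = 9.75e-04). Pxt, a cyclooxygenase-like peroxidase needed in follicle development, rose by 3.48 (SE 0.46). The 3 yolk protein genes of the list were not called. Yp1 was at -3.39, -3.33, -3.01 and -4.17 in smg, against -3.62, -4.23, -3.61 and -3.22 in w1118. Its level was far below the array median on each of the 8 arrays, also on smg replicate 3, and the difference was 0.20 (adjusted p = 0.911). Yp2 was at -0.14 and Yp3 at 0.57. The part of follicle cell or oocyte material in these results was not tested.

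Among 16 chaperone genes 5 rose, 0 fell and 14 were positive (median 0.65). Hsp26, a small heat shock protein stored in the egg, was at -1.80, -0.59, 2.04 and 0.72 in smg, against -3.63, -3.77, -2.16 and -3.01 in w1118 (difference 3.23, SE 0.45, adjusted p = 0.00141). Of the cytosolic chaperonin, a ring that folds actin and tubulin, CCT7 (2.79, SE 0.45), CCT2 (2.59, SE 0.39) and CCT3 (2.09, SE 0.53, with overlapping groups) rose. The other subunits tested, CCT8 (1.13), CCT5 (0.98), CCT1 (0.70) and CCT4 (-0.02), were not called. The DnaJ-family gene Droj2 rose by 2.33 (SE 0.57) with overlapping groups. The chaperone list kept a positive median of 0.61 with smg replicate 3 turned in sign.

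Cell cycle and replication genes showed the same pattern of a few called rises among mostly positive differences. Of 21 checkpoint and early cell cycle genes 3 rose, 0 fell and 19 were positive (median 0.58). lok, the checkpoint kinase Chk2 that acts in removing damaged nuclei from the blastoderm surface, was at -0.64, -0.66, 2.92 and 0.91 in smg, against -2.64, -2.07, -1.76 and -1.82 in w1118. The 2 genotypes did not overlap, with a difference of 2.71 (SE 0.49, adjusted p = 0.00694). Rbf, the retinoblastoma protein, rose by 2.37 (SE 0.50). Of 19 replication genes 3 rose, 0 fell and 17 were positive (median 0.82). These were Gnf1, the large subunit of the clamp loader (2.72, SE 0.40), RPA1, the large subunit of the single-strand binding protein (2.34, SE 0.44), and Cdc45, a component of the replicative helicase (2.14, SE 0.39). The groups overlapped for Cdc45.

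The other genes among the 15 largest named rises came from none of the 24 lists. mub, a KH-domain RNA-binding protein, rose by 3.06 (SE 0.55). cib, an actin-binding protein with beta-thymosin repeats, was at 0.55, -0.14, 3.09 and 1.01 in smg, against -1.44, -1.81, -2.19 and -1.90 in w1118 (difference 2.96, SE 0.52). Uch, a ubiquitin hydrolase that smg replicate 2 did not measure, rose by 2.98 (SE 0.54), and superdeath rose by 3.23 (SE 0.35). The groups did not overlap for these 4 genes, which is part of the rule that named them.

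**Figure D3:**
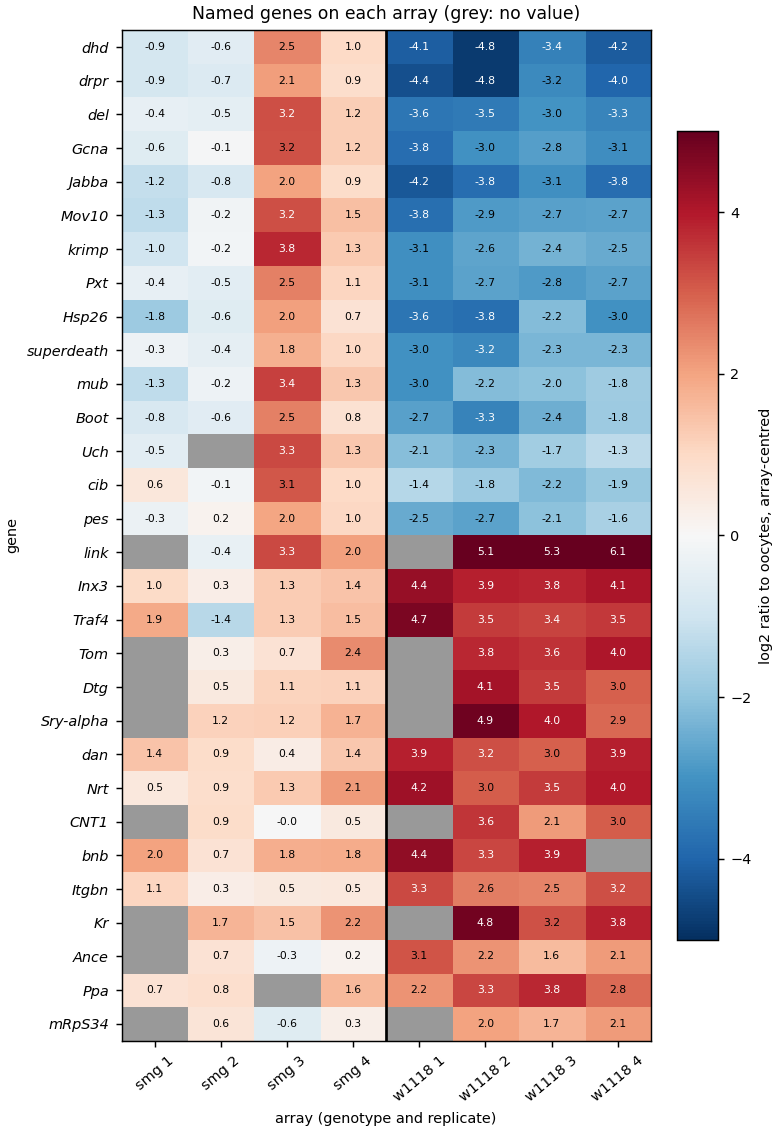
Level of the 15 genes with the largest named rises and the 15 with the largest named falls on each of the 8 arrays, as log2 ratio to oocytes relative to the array median, smg arrays left of the line and w1118 arrays right of it. The upper 15 genes are blue on all w1118 arrays and pale or red in smg, reddest on smg replicate 3; the lower 15 are dark red in w1118 and pale in smg on most arrays.

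The 11 lists of maternal functions held 179 tested genes between them. 31 of these (17.3%) were called higher, where 3.7% of all genes were, and 0 were called lower. Of the 179, 155 were positive, where 63.9% of all genes were, with a median of 0.59 beside 0.16 for all genes. The 3393 genes with a value on all 8 arrays had a higher median, 0.38, and 152 of the 179 could be tested on the earlier slides alone. With smg replicate 3 turned in sign 107 of the 179 were positive (median 0.21), where all genes had a median of 0.06 with 55.2% positive, and 0 were called. Without smg replicate 3, 126 of 154 were positive and 27 were called higher, where 68.6% of all genes were positive. Setting aside the genes already named in earlier results of these data left 160 genes, of which 17 were called higher, 0 lower and 136 positive (median 0.52).

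Of the 21 genes that fell, 13 belonged to the lists of zygotic patterning, blastoderm and adhesion genes. link had the largest fall, at -0.36, 3.3 and 2.04 on smg replicates 2 to 4, against 5.06, 5.27 and 6.09 on w1118 replicates 2 to 4. Replicate 1 of both genotypes had no value, and the difference was -3.81 (SE 0.56, adjusted p = 0.00286). Inx3, an innexin that forms gap junctions between epithelial cells, was at 0.97, 0.32, 1.27 and 1.41 in smg, against 4.37, 3.89, 3.81 and 4.09 in w1118. The 4 arrays of each genotype lay close together and far from the other genotype, also on smg replicate 3, and the difference was -3.05 (SE 0.35, adjusted p = 4.17e-04). It was -3.68 with smg replicate 3 turned in sign, with an adjusted p of 0.0621.

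Neurogenic and Bearded-family genes, some of which act in Notch signalling or in setting up the nervous system, held the most falls of any list. Of 13 tested 6 fell, 0 rose and 2 were positive, with a median of -1.19, where 0.363% of all genes fell. Most of these falls had been seen in earlier results of these data, so the list is not independent of them, and danr was the 1 called gene of the 6 zygotic lists that had not. Beside link these were Traf4, an adaptor of tumour necrosis factor receptor signalling (-2.95, SE 0.60), Tom, of the Bearded family (-2.66, SE 0.50), dan (-2.47, SE 0.37) and danr (-1.70, SE 0.39), which encode related nuclear proteins of eye and antenna development, and bnb (-2.34, SE 0.44). dan was at 1.44, 0.94, 0.39 and 1.35 in smg, against 3.88, 3.24, 2.98 and 3.90 in w1118. danr was at 0.99, -0.06 and -0.01 on smg replicates 2 to 4, against 2.44, 1.61 and 1.97 on w1118 replicates 2 to 4. The groups of both genes were apart. dpn, a neural precursor gene of the Hes family, was at -1.19 and not called (adjusted p = 0.162). The Enhancer of split genes E(spl)m2-BFM (0.31), E(spl)m5-HLH (-0.34) and E(spl)mbeta-HLH (-0.45) were not called either. Nor were the remaining members l(1)sc (-0.54), ase (0.10) and nerfin-1 (-0.95).

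Junction and adhesion genes gave 3 falls among 24 tested (0 rises, 8 positive, median -0.16). Beside Inx3 these were Nrt, a cell adhesion protein, at 0.51, 0.89, 1.32 and 2.14 in smg, against 4.23, 3.02, 3.49 and 3.95 in w1118 (difference -2.46, SE 0.39), and the integrin beta subunit gene Itgbn (-2.29, SE 0.35). The innexin gene Inx2 was at -0.14 (adjusted p = 0.949). Among 10 dorsal-ventral genes none was positive and 2 fell, with a median of -0.86. These were Dtg, named as a target of the morphogen Dpp (-2.63, SE 0.44), and Ance, an angiotensin-converting enzyme of dorsal tissue (-1.92, SE 0.39). The mesoderm regulator twi (-0.83, adjusted p = 0.282) and the T-box gene Doc3 (-0.93, adjusted p = 0.196) were not called.

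Of 11 gap and terminal genes Kr fell, 0 rose and 4 were positive (median -0.34). Kr, a gap gene of the central embryo, was at 1.71, 1.47 and 2.24 on smg replicates 2 to 4, against 4.82, 3.17 and 3.85 on w1118 replicates 2 to 4. The groups were apart and both lay above the array median, and the difference was -2.14 (SE 0.46, adjusted p = 0.0222). Other zygotic members of the list were not called, among them kni (-0.58), hkb (-0.58), and the positive tll (0.35) and slp2 (0.08). Of its maternal members, tor (1.07, adjusted p = 0.313), the terminal receptor tyrosine kinase, and cad (0.63, adjusted p = 0.633), a homeobox gene whose mRNA the oocyte also supplies, were positive. None of 9 pair-rule and segment polarity genes was called (6 positive, median 0.06), with nkd at -0.80 and inv at 0.22. The median of this list was -0.27 after quantile normalization, -0.45 when centred on genes measured on all 8 arrays, -0.02 as deposited and -0.04 after scaling.

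Of 11 cellularization and blastoderm genes Sry-alpha fell, 0 rose and 3 were positive (median -0.46). Sry-alpha, which acts on the actin network at the furrows that enclose the blastoderm nuclei, was at 1.15, 1.18 and 1.75 on smg replicates 2 to 4, against 4.87, 4.00 and 2.88 on w1118 replicates 2 to 4 (difference -2.56, SE 0.49, adjusted p = 0.0118). The insulator factors Elba3 (-1.80, adjusted p = 0.0796) and Elba2 (-1.53, adjusted p = 0.12) were not called. Elba2 was at -1.95, -1.54, 1.75 and -0.12 in smg, against 0.66, 1.23, 1.45 and 0.94 in w1118, so that only smg replicate 3 lay above the w1118 arrays. Without that array its difference of -2.14 was called (adjusted p = 0.00325). scra, the anillin of the cleavage furrow, was at 1.17 (adjusted p = 0.213).

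The remaining falls came from no zygotic list. CNT1, a nucleoside transporter, fell by 2.45 (SE 0.42), Ppa, an F-box protein, fell by 1.87 (SE 0.41), and the mitochondrial ribosomal protein gene mRpS34 fell by 1.84 (SE 0.43). Galphas, a G protein alpha subunit, fell by 1.65 (SE 0.39) with overlapping groups, and ImpL2, a secreted insulin-binding protein, fell by 1.54 (SE 0.39). CG12581, CG8066 and CG43394, with no further name in the tables, fell by 2.44, 2.31 and 1.86. These 3 genes, Galphas, ImpL2 and danr were named after their values were seen, because they complete the 21. CG12581 was at 0.60, -0.04, 0.17 and 0.44 in smg, against 2.75, 2.48, 2.92 and 2.77 in w1118, with the smallest SE of the 21 falls (0.33, adjusted p = 0.00108). The differences given by its spots, however, spread over 1.53.

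Over the 6 zygotic lists together 75 genes were tested, of which 13 fell, 0 rose and 22 were positive, with a median of -0.34 beside 0.16 for all genes. The 13 are 17.3% of the 75, where 0.363% of all genes fell and 63.9% were positive. With smg replicate 3 turned in sign 16 of the 75 were positive (median -0.62). Without smg replicate 3, 13 of 44 were positive and 7 were called lower. Without the genes named in earlier results 57 remained, of which 1 fell and 22 were positive (median -0.15).

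**Figure D4:**
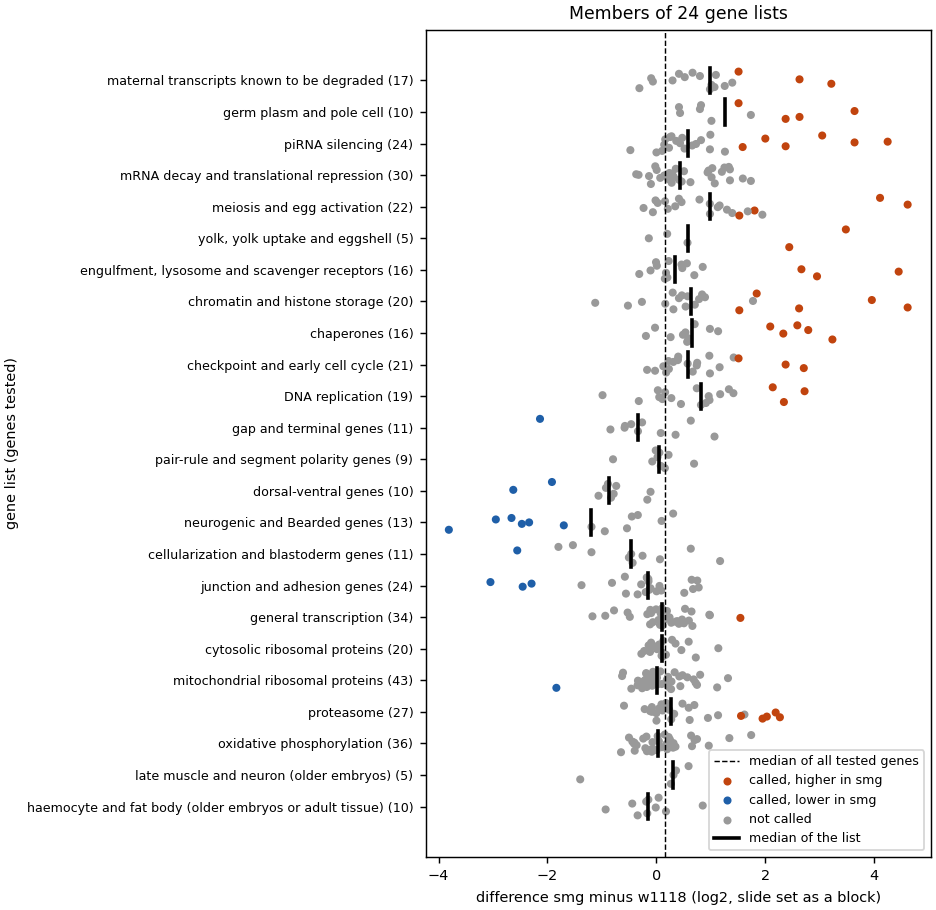
Difference smg minus w1118 (horizontal axis, log2) of every tested member of the 24 gene lists, one list per line with its number of genes tested; orange points were called higher, blue lower, grey not called, short bars are list medians and the dashed line is the median of all genes. Called rises lie in 10 of the upper 11 lists (not in mRNA decay), the proteasome and general transcription. Called falls lie in 5 of the 6 zygotic lists (not in pair-rule and segment polarity) and in 1 mitochondrial ribosomal gene.

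Lists of general cell functions had medians near that of all genes. The proteasome list had a median of 0.27, with 5 rises and 0 falls among 27 tested. The rises were all in the regulatory particle, which recognises and unfolds ubiquitinated proteins. Rpn8 was at -0.29, 0.22, 1.66 and 1.16 in smg, against -1.71, -2.10, -1.48 and -1.05 in w1118 (difference 2.27, SE 0.35, adjusted p = 0.00257). Rpn11, the deubiquitinating subunit (2.19, SE 0.44), Rpn7 (2.03, SE 0.34), the ATPase Rpt3 (1.95, SE 0.46) and Rpn5 (1.56, SE 0.41) were the others. The groups overlapped for Rpn11, Rpt3 and Rpn5. A split of the list made after these values were seen gave 5 of 13 Rpn and Rpt genes called, with a median of 1.13, and 0 of 14 Prosalpha and Prosbeta genes of the core particle called, with a median of 0.10. The difference between the 2 parts of the proteasome was not tested, and both parts hold testis-type paralogues. The whole list's median was below 0 (-0.11) when arrays were centred on genes measured on all 8 arrays.

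None of 20 genes listed as cytosolic ribosomal protein genes was called (14 positive, median 0.11), with RpL39 at 1.14. The list also counted qm (0.72), whose symbol is not that of a ribosomal protein gene. Of 43 mitochondrial ribosomal protein genes mRpS34 fell, 0 rose and 22 were positive (median 0.00), with mRpL40 at 1.32 and mRpS33 at 1.12, neither called. None of 36 oxidative phosphorylation genes was called (21 positive, median 0.04), and the ATP synthase genes ATPsynC (1.74, adjusted p = 0.108) and ATPsynbeta (1.34, adjusted p = 0.0563) were the largest. Of 34 general transcription genes Taf11, a subunit of TFIID, rose by 1.54 (SE 0.38) with overlapping groups, 0 fell and 23 were positive (median 0.11). MED26, a Mediator subunit, was at 0.98 (adjusted p = 0.265). The medians of the cytosolic ribosomal list (-0.29 to 0.04) and of the general transcription, mitochondrial ribosomal and oxidative phosphorylation lists changed sign between ways of scaling the arrays, so that no direction is given for them.

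Markers of older embryos and of other tissue were examined for the labelled stage. Of 5 late muscle and neuron genes tested 0 were called and 4 were positive (median 0.31). Their array medians were -0.23, -0.11, 2.00 and 0.67 in smg, against -0.14, 0.13, 0.26 and 0.85 in w1118, with smg replicate 3 alone high. The list's median was below 0 after quantile normalization (-0.07), when centred on genes measured on all 8 arrays (-0.06) and with smg replicate 3 turned in sign (-0.87). The muscle actin gene Act79B was at 2.92 on that array, against a range of -0.44 to 0.88 on the other smg arrays and -0.21 to 0.85 on the w1118 arrays. Mlc2 had the largest difference of the list in size, at -1.40, and was not called (adjusted p = 0.127). Of 10 haemocyte and fat body genes 0 were called and 3 were positive (median -0.16). NimC1, a phagocytic receptor of haemocytes, was likewise highest on smg replicate 3 (3.16), and apolpp, the fat body lipoprotein, was at -0.93 (adjusted p = 0.246). The array medians of the haemocyte and fat body list were 0.59, 0.15, -0.33 and -0.22 in smg, against 0.40, 0.17, 0.24 and 0.03 in w1118. The part of other tissue in the results was not tested.

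The numbers of called genes depended strongly on the processing. As deposited, with no centring of the arrays, limma called 0 genes in either direction, with 13 higher and 19 lower at an unadjusted p under 0.05. Without the slide sets as a block 11 genes were called higher and 5 lower, all of them among the 214 and the 21. Of all calls 91.1% were rises. This share was 71.0% when arrays were centred on the genes measured on all 8 arrays (115 higher, 47 lower), 69.0% after quantile normalization (191 higher, 86 lower) and 86.4% with arrays scaled to one spread (317 higher, 50 lower). Centring on the genes measured on all 8 arrays moved the median difference of all genes to -0.26, so rises and falls are relative to the chosen centre.

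**Figure D5:**
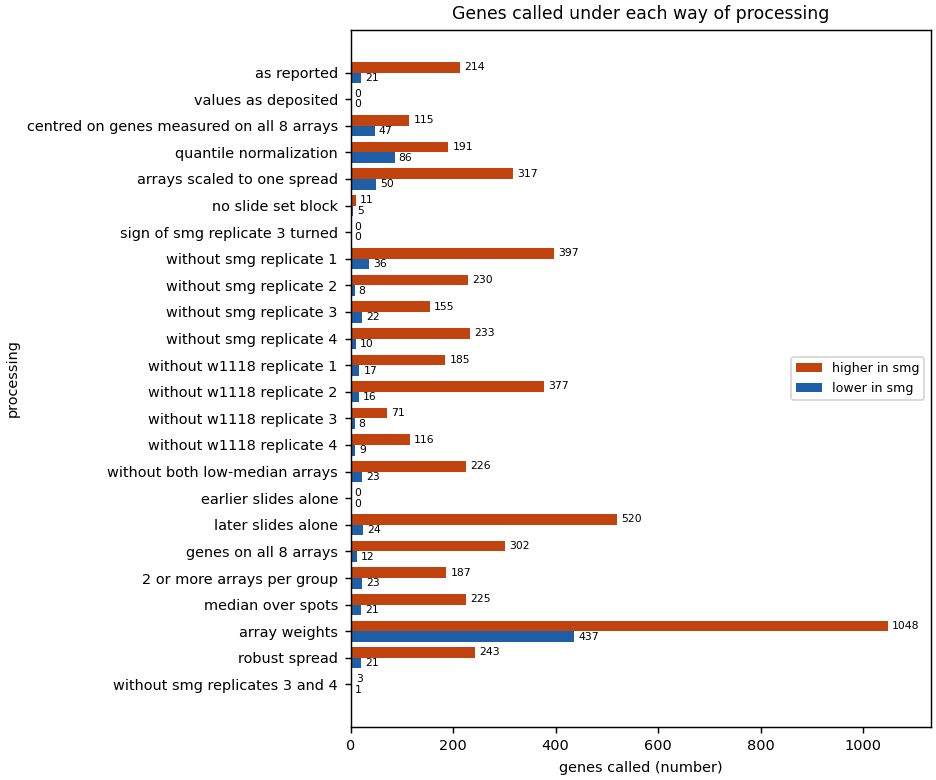
Number of genes called higher (orange) and lower (blue) in smg under each way of processing, with the reported fit at the top. Counts of rises lie between 0 and 1048 and counts of falls between 0 and 437; both are 0 for the values as deposited, with smg replicate 3 turned in sign and on the earlier slides alone.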

How the data were processed

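Per the submitters' design text, total RNA was reverse transcribed with random primers, and 16-bit images were quantified with QuantArray 3 and normalized in GeneTraffic Duo 3.2 by a rank-invariant LOWESS within each array. The steps for background correction and spot filtering are not given in these sources. The values deposited by the authors are log2 ratios per spot; the base was inferred from their range and the numerator from the yolk and patterning genes. Of 27648 spots 15116 carried a single gene and were averaged to 6793 genes; 102 with several genes and 12430 with none listed were left out. Each array was centred on its gene median. Differences were fitted in R 4.3.3 with limma 3.58.1 (lmFit, eBayes, two-sided, slide set as a block), a procedure tested on simulated data. The simulated noise was independent between arrays, so that test does not cover an array that runs against its replicates.

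Named genes were the 15 largest rises and 15 largest falls among called genes with no overlap between groups and a proper symbol, up to 4 called members of each list (or 2 measured members where fewer than 2 were called), and smg, Yp1, Kr, Inx3 and, where measured, Hsp83. The comparison, its members and the lists were chosen with earlier results of these data known. Alternatives covered centring, scaling, block, sign, left-out arrays, filters and spread.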

Additional observations from a re-analysis of the deposited data

Results flagged for a closer look

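In groups of 4 arrays, a single array can lie far from the other 3. Of 201 such groups among the named genes 5 had one, and chance marks about 1 in 20. Mov10 was at -3.75 on w1118 replicate 1, against -2.85 to -2.69 on the other w1118 arrays. Traf4 was at 4.71 on w1118 replicate 1, against 3.40 to 3.52 on the others. tor was at -1.73 on w1118 replicate 1, against -1.0 to -0.91 on the others. In smg, bnb was at 0.73 on replicate 2, against 1.81 to 2.02 on the others. Galphas was at 1.22 on smg replicate 1, against -0.27 to -0.02 on the others. Replicate 1 of w1118 and of smg are the arrays with low deposited medians. Mov10, Traf4, bnb and Galphas were called.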

How the results depend on the processing

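The count of rises (214) became 0 as deposited, 0 with smg replicate 3 turned in sign, 0 on the earlier slides, 3 without smg replicates 3 and 4 (chosen after seeing the data), 11 without the slide block, 115 centred on genes measured on all 8 arrays, 520 on the later slides and 1048 with array weights. With 1 array left out it ran from 71 (without w1118 replicate 3) to 397 (without smg replicate 1), with 377 and 116 without w1118 replicates 2 and 4. The count of falls (21) became 0 as deposited, 0 with smg replicate 3 turned, 0 on the earlier slides, 1 without smg replicates 3 and 4, 5 without the block, 12 for genes on all 8 arrays, 47 centred on those genes, 50 scaled, 86 after quantile normalization and 437 with array weights, and with 1 array left out ran from 8 (without smg replicate 2 or w1118 replicate 3) to 36 (without smg replicate 1), with 9 without w1118 replicate 4 and 10 without smg replicate 4. The difference of the smg gene passed the test at 1.70 without w1118 replicate 2, 2.39 on the later slides and 1.25 with array weights. It was -0.24 on the earlier slides and -0.24 without smg replicates 3 and 4, and ran from 0.45 to 1.70 with 1 array left out. Over 23 alternatives the 78 called named genes gave 1688 values, of which 1233 were called in the same direction, 455 were not called and 0 changed direction. The cause of these changes was not tested. The 78 genes were called from the same arrays, so their kept direction is not independent support. The number of lists with a median above that of all genes (13 of 24) stayed within 10 to 15. No paired analysis was possible because no label pairs an smg array with a w1118 array, and slide numbers give only an order. The low-median pair had a value for only 51.1% (smg) and 48.9% (w1118) of spots, which limits the genes that can be tested. With 1 of replicates 2 to 4 of either genotype left out, 3590 to 3819 genes could be tested, against 5791. smg replicate 1 measured 11 of the 21 falls, so some genes missing from these left-out counts could not be tested. Signals over background were not analysed here.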

Other observations

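The groups of genes described here, glycolysis, mitochondrial import and tRNA synthetases included, were put together after the values were seen, so their counts describe and support nothing. Genes of mRNA transport in the oocyte and of egg chamber actin gave 8 rises among 17 tested (median 1.36). egl, which links localised mRNA to dynein, was at 0.26, 0.51, 1.97 and 0.61 in smg, against -0.97, -1.57, -1.20 and -1.25 in w1118 (difference 2.08, SE 0.38, limma adjusted p = 0.00785). The smg arrays were all above the array median and the w1118 arrays all below it. lost (2.61), qua (2.24), the adducin gene hts (2.23) and otu (1.68) rose too. Genes of microtubule nucleation and the spindle gave 7 rises among 27 (median 0.49), among them the gamma-tubulin complex gene Grip84 (2.90), the microtubule polymerase msps (2.37) and the kinesin Klp10A (2.14). Of 12 genes of cohesion and chromosome structure SMC1 (1.99), dmt (2.46), the cohesin acetyltransferase eco (1.95) and SMC6 (1.67) rose (median 1.02). The groups overlapped for hts, msps and dmt.

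Of 10 glycolysis genes, a group also formed after the values were seen, 3 rose and 0 fell, with a median of 0.93. Gapdh1 was at -1.68, -1.19, 1.30 and 0.23 in smg, against -3.84, -3.26, -2.55 and -2.05 in w1118 (difference 2.59, SE 0.38, adjusted p = 0.0019), with no overlap between the genotypes. Eno (2.31) and Pgk (1.73), 2 further enzymes of the pathway, also rose. Of 9 genes of mitochondrial protein import 4 rose (median 1.14), and of 13 aminoacyl-tRNA synthetase genes 3 rose (median 0.15).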
